A study of Mus musculus with 25 samples.

Results

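The regions described here are stretches of DNA enriched in a Notch1 (N1) ChIP, 300 bp or longer, that share no base with open chromatin. They were taken from the deposited list of N1 ChIP regions on chromosomes 1 to 19 and X by length and by the lack of any overlap with the total and the Notch-dependent FAIRE peaks. The rule kept 3599 regions. They are 61.4% (exact Clopper-Pearson 95% interval 60.2 to 62.7%) of the 5858 ChIP regions of that length, and the whole list holds 22307 ChIP regions. The other 2259 long regions lie in open chromatin. The regions were chosen by their ChIP enrichment, length and lack of FAIRE signal, so these values describe them and test nothing. The 6 lists of sites marked by split DamID (SpDamID) took no part in the choice.

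The cells were mK4, a line of mouse kidney mesenchyme cells of embryonic origin, in every library. The ChIP pulled down N1 through a myc tag, with 1 ChIP library and 1 input library, both with the strain label CD1. FAIRE, which recovers the nucleosome-poor DNA of cross-linked nuclei, was set up with 3 N1wt libraries, 3 control libraries and 1 N1wt input, and both peak lists are read here as N1wt. In SpDamID, the Dam methylase is split in an inactive D part and an inactive AM part, and GATC sites are methylated where both fused proteins meet. The pairs were N1-D with RBP-AM-Ert2, MAML-AM-Ert2 or p300-AM-Ert2 (3 libraries each), N1-D with N1-AM-Ert2 (2 libraries), and Mef2c-D with MAML-AM-Ert2 or p300-AM-Ert2 (1 library each), scored over 3 Dam control libraries. Ert2 is a hormone-binding domain of the oestrogen receptor that makes a fusion protein respond to tamoxifen, and no label gives a treatment. The strain labels of 1 N1/N1 library and of the Mef2c/MAML library differ from CD1. The lists are pooled over libraries, which leaves the values below without a replicate error, and comparisons between conditions are descriptions of these libraries.

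Notch1 is a receptor that is cleaved when a neighbouring cell presents a ligand. Its intracellular part moves to the nucleus, joins the DNA-binding protein RBP and the co-activator MAML, and MAML brings in the acetyltransferase p300. In embryonic kidney mesenchyme Notch signalling is known for its role in the fate of nephron segments. Mef2c is a MADS-box transcription factor that binds DNA by itself, and its pairs hold no Notch protein. Transcription factor sites usually lie in open chromatin, where FAIRE finds them.

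The ChIP values are shallow, and the arithmetic of the deposited columns shows how shallow. The ChIP signal multiplied by the length of the region was a whole number (within 0.001) in all 22306 regions on these chromosomes, so the signal is a mean coverage per base. The input signal was exactly 0.1 in 2768 of the 3599 regions (76.9%). In the whole list 0.1 times the length was whole in only 9.82% of the regions with that value, and 1043 regions had an input below it, so 0.1 is a fixed value and not a coverage. In the other 831 regions the input totalled exactly 51 bases in 460, 2 times that in 77 and 3 times that in 26. A read is therefore taken as 51 bases here. The plot of input totals shows these steps.

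**Figure D1:**
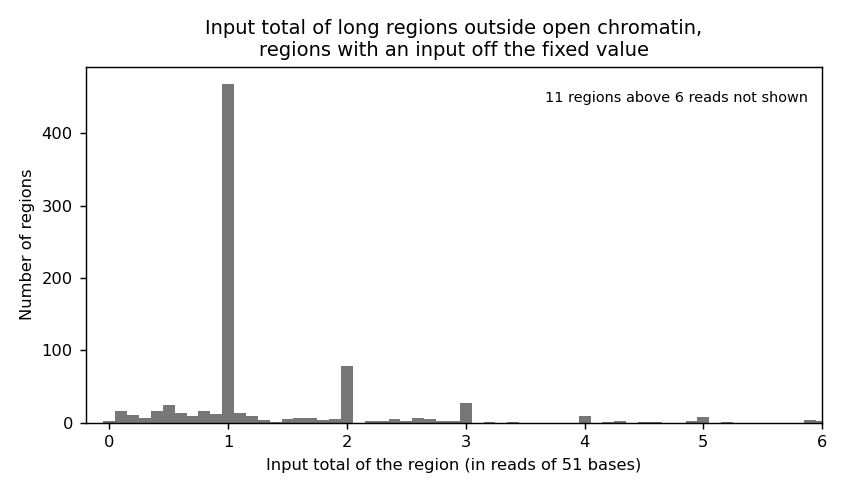
Number of long ChIP regions outside open chromatin (vertical axis) by their input total in reads of 51 bases (horizontal axis), for the 831 regions whose input is not the fixed 0.1. The tallest bar stands at 1 read, smaller ones at 2 and 3 reads, and 11 regions above 6 reads are not drawn.

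Measured inputs were thus mostly of 1 read or less, in 596 of 831 regions (71.7%). The ChIP totals had a median of 13.4 reads, with quartiles of 9.78 and 20.7. At such totals a ratio of 10 or more caps the input of a kept region, so low inputs are partly set by the choice of regions. A ChIP signal below 1 occurred in 0 of the 22306 regions, and with an input of 0.1 a ratio of 10 is the same as a ChIP signal of 1. For the 2768 regions with the fixed input the ratio therefore restates the ChIP signal. If such an input stood for 0 reads, a count of 0 would allow up to 3 reads. Of these regions, 1840 (66.5%) held at least 10 ChIP reads, which keeps a ratio of 10 over 1 input read, and 225 (8.13%) held at least 30, which keeps it over 3. Reads were not scaled to library depth, which is unknown, and these limits cover counting error only.

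The length threshold was met closely by some regions. Exactly 300 bp was the length of 10 regions, and 10 ChIP regions outside open chromatin had 299 bp. On chromosome 2, 93173744 to 93174043 (300 bp, build mm9) had a ChIP signal of 1.50. The region on chromosome 4 from 45604367 to 45604666 had 1.42, and that on chromosome 5 from 139775076 to 139775375 had 1.19. Just below the threshold, at 299 bp, 121964460 to 121964758 on chromosome 1 had 1.02 and 165594984 to 165595282 on chromosome 2 had 1.11. A further region of 299 bp, on chromosome 2 from 173578608 to 173578906, stood apart with 7.56.

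Few of the long regions outside open chromatin were marked by a protein complex. An SpDamID list held 493 of the 3599, or 13.7% (12.6 to 14.9%), against 786 of the 2259 long regions in open chromatin, or 34.8% (32.8 to 36.8%). The background share was 21.8% over all ChIP regions of 300 bp or more and 6.1% over ChIP regions of every length. The difference between closed and open long regions was -21.1 points, with a 95% interval from -23.4 to -18.8. That interval covers counting over regions only and takes regions as independent, which neighbours are not. Regions are not replicates, so no test was made. Among ChIP regions outside open chromatin, the share in a list rose with length up to 350 to 399 bp. It was 0.662% at 200 to 249 bp, 2.45% at 250 to 299 bp and 7.59% (5.80 to 9.72%) at 300 to 349 bp. At 350 to 399 bp it was 14.2% (11.3 to 17.6%). Above that length there was no steady rise, and the intervals overlapped. The share was 16.31% (13.88 to 18.98%) at 400 to 499 bp and 14.72% (12.82 to 16.79%) at 500 to 999 bp. From 1000 bp it was 17.2% (12.6 to 22.7%). The SpDamID lists themselves held few short fragments, with between 0.240% (N1/RBP) and 4.71% (N1/MAML) under 300 bp, so the background over every length is set largely by short ChIP regions. Median lengths were 454 bp for the closed and 514 bp for the open long regions, and the part of length in the difference between them was not tested.

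Mef2c/MAML held the most of these regions, 310 or 8.61%, with a background of 14.3% in long ChIP regions and 3.99% in ChIP regions of every length. N1/RBP held 253 (7.03%), with backgrounds of 13.1% and 3.47%, and N1/p300 held 220 (6.11%), with backgrounds of 11.7% and 3.17%. N1/MAML held 199 (5.53%), with backgrounds of 10.8% and 3.05%, N1/N1 held 184 (5.11%), with 10.2% and 2.74%, and Mef2c/p300 held 47 (1.31%), with 2.44% and 0.641%. Each share lies below its background in long regions and above that in all lengths. The open long regions lie above both in every list, from 4.25% in Mef2c/p300 to 23.5% in Mef2c/MAML. The background in long regions is made up of the closed and the open ones, so where the closed ones lie below it the open ones must lie above. The order of the lists was Mef2c/MAML, N1/RBP, N1/p300, N1/MAML, N1/N1, Mef2c/p300 in both kinds of region. The Mef2c/MAML list is also the longest, with 50381 regions.

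**Figure D2:**
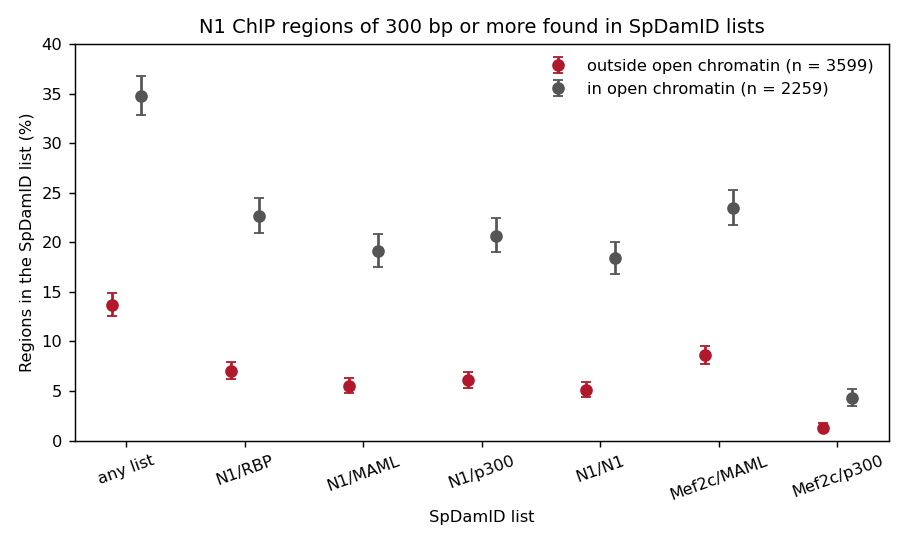
Share of N1 ChIP regions of 300 bp or more that lie in an SpDamID list (vertical axis, percent) for any list and for each of the 6 lists (horizontal axis), with exact 95% intervals as bars. Regions outside open chromatin (red) lie below those in open chromatin (grey) in every list, 13.7% against 34.8% for any list.

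Read from the side of the complexes, the long ChIP regions were a small part of the closed sites. They were 2.0% of the 9935 N1/MAML regions of 300 bp or more outside FAIRE, 1.60% of the N1/p300 ones, 1.41% of the N1/RBP ones and 0.897% of the N1/N1 ones. Of the Mef2c/MAML ones they made up 0.806%, and of the Mef2c/p300 ones 0.201%. All members in a list had the same start and end as the SpDamID fragment, so both assays were reported on a common map of fragments.

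Marked regions were often marked by more than 1 pair of proteins. A single list held 188 of the 493, 2 lists held 107, 3 held 74, 4 held 48, 5 held 59 and all 6 held 17. The most frequent combination was Mef2c/MAML alone, with 70 regions. Next came the 4 N1 pairs together with Mef2c/MAML, with 54, then N1/RBP alone with 37, N1/MAML alone with 32, N1/p300 alone with 25 and N1/N1 alone with 19. Both kinds of list, N1 and Mef2c, held 236 (47.9%), N1 lists only held 174 (35.3%) and Mef2c lists only held 83 (16.8%). Among marked long regions in open chromatin, Mef2c lists only held 8.14%, which is 8.69 points lower (95% interval 4.85 to 12.7, counting over regions only). The marked regions in open chromatin also lay in 2 or more lists more often, 75.4% against 61.9% of the closed ones. The part of this in the lower Mef2c share was not tested.

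The SpDamID scores at these regions had higher medians than all closed sites of that length in 5 of 6 lists, within a wide spread. Scores are the authors' values and are compared within a list only. In N1/MAML the median score was 426 at the long ChIP regions (quartiles 271.5 and 567), against 319 for all list regions of 300 bp or more outside FAIRE. In Mef2c/MAML these medians were 408.5 and 323, in N1/p300 354.5 and 305, in N1/RBP 343 and 297, and in N1/N1 276 and 247. Mef2c/p300 alone had a lower median at the ChIP regions, 261 against 276.

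ChIP signal differed little between marked and unmarked regions. Inside the lists the median was 1.40 (quartiles 1.16 and 2.01), and outside it was 1.32 (quartiles 1.12 and 1.75). The quotient of the medians was 1.06, with a 95% interval from 1.01 to 1.11. A median member outside the lists holds 13.0 reads, so the counting error of a single region is far larger than this difference. The quotient fell to 1 or below in 1 of 13 other settings, a ratio of 20 or more, with medians of 2.47 inside and 2.53 outside. Length differed by about as much, with medians of 481 bp inside and 453 bp outside.

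Marked and unmarked regions differed more in the upper range of signal, and there the result rests on few places. A ChIP signal of 2 or more was found in 127 of 493 marked regions (25.8%) and in 587 of 3106 unmarked ones (18.9%). For a signal of 5 or more the shares were alike, 5.27% (26 regions) and 4.89% (152 regions). Of these 152 unmarked regions, 110 lay in 3 clusters described below, and without these clusters the unmarked share was 1.42%, 3.86 points below the marked one (95% interval 1.99 to 6.25). These clusters hold no marked region, so leaving them out could change the unmarked share only. The wholly marked cluster of 9 regions on chromosome 6 stayed in, with a median signal of 7.50. The plot of ChIP signal shows the unmarked regions with and without the 3 clusters.

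**Figure D3:**
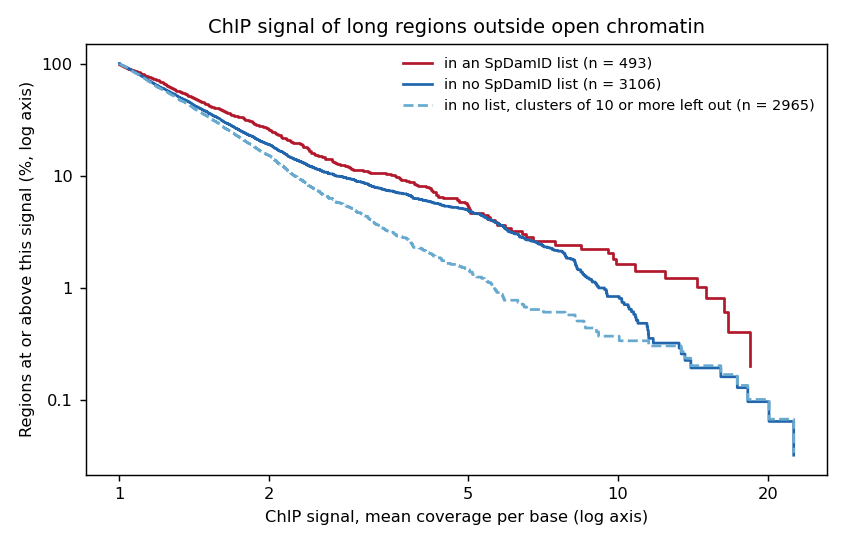
Share of long ChIP regions outside open chromatin at or above a given ChIP signal (both axes logarithmic; the signal is the mean coverage per base), for 493 regions in an SpDamID list, 3106 in none, and 2965 in none after 3 clusters of 10 or more were left out. At a signal of 5 the marked and unmarked lines meet at 5.27 and 4.89%, and the dashed line lies at 1.42%.

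Signal was higher in the small classes held by 5 or 6 lists. The median was 1.32 in 0 lists, 1.34 in 1 list, 1.71 (95% interval 1.48 to 2.04) in 5 lists and 2.34 (1.29 to 3.42) in the 17 regions of all 6 lists. Shares with a signal of 2 or more were 18.9% in 0 lists, 20.7% in 1 list, 40.7% in 5 lists and 52.9% in 6 lists. In between, 3 lists gave 18.9%, so the order was not unbroken.

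Input was measured about as often in marked as in unmarked regions of 300 bp or more. An input off the fixed value was found in 120 marked regions (24.3%) and 711 unmarked ones (22.9%), a difference of 1.45 points with a 95% interval from -2.57 to 5.74. With regions from 200 bp the difference was 5.80 points and its interval, 2.05 to 9.83, no longer held 0. Where it was measured, the median input was 1 read in both classes, under the cap that the ratio sets. The mean was 2.0 reads inside and 1.36 outside. Single regions with high inputs lay in both classes. Their ChIP signals were high too, which the ratio of 10 or more requires. On chromosome 8, 19784461 to 19785355 had an input signal of 1.08 (19 reads) and a ChIP signal of 18.4, and lay in N1/MAML. Nearby, 20019676 to 20020560 had 1.04 (18 reads) and 16.6, also in N1/MAML, and the unmarked 19892397 to 19893292 had 0.683 (12 reads) and 16.1. These 3 regions of 895, 885 and 896 bp are of nearly equal length. On chromosome 15, 10643138 to 10644084 had an input of 0.698 and lay in N1/RBP, N1/p300 and N1/N1, and the unmarked 9070422 to 9070729 had 0.860 and a ChIP signal of 14.0. On chromosome 3, 93094750 to 93095328 had an input of 0.636.

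Marked regions lay closer to open chromatin than unmarked ones. A FAIRE peak lay within 1 kb of 126 of the 493 marked regions, 25.6% (21.8 to 29.6%), and of 302 of the 3106 unmarked ones, 9.72% (8.70 to 10.8%). The difference was 15.8 points, with a 95% interval from 11.9 to 20.1. Median distances were 11853 bp and 19095.5 bp. Of the 76077 SpDamID fragments of 300 bp or more outside FAIRE that were no ChIP region, 10.9% lay within 1 kb, close to the share of the unmarked ChIP regions. These fragments pool the lists in other proportions than the marked regions do. Mef2c/p300 had 23432 regions of that length outside FAIRE but held only 47 of the 493 marked regions. The part of the lists in this difference was not tested. By list, 31.6% of the members in N1/RBP had a peak that close, 28.2% of those in N1/p300, 27.1% in N1/MAML, 23.9% in N1/N1, 29.7% in Mef2c/MAML and 10.6% in Mef2c/p300. Among members in all 6 lists it was 2 of 17.

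Marked regions also adjoined other ChIP signal more often. A further ChIP region of any length adjoined 45.8% of the marked and 38.4% of the unmarked regions, with no base between them. The adjoining ChIP region lay in open chromatin for 30 marked regions (6.09%) and 44 unmarked ones (1.42%). A small share of each class thus lies at the edge of ChIP signal that reaches into a FAIRE peak. An SpDamID fragment adjoined 316 unmarked regions (10.2%), and 1716 (55.2%) had one within 5 kb.

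Clustering among the long closed regions was similar in both classes at the main settings. Another such region lay within 5 kb of 31.2% of the marked (154) and 32.2% of the unmarked regions (1001), a difference of -0.991 points with a 95% interval from -5.39 to 3.61. This result depended on the settings. The difference was -9.89 points (-18.2 to -0.56) at a ratio of 20 or more and 5.55 points (0.943 to 9.95) with a ChIP region of any kind as the neighbour, and both intervals leave out 0. Within 1 kb the shares were 22.1 and 22.5%, and within 50 kb 56.6 and 57.6%. Joined at 5 kb, the regions formed 2856 groups, of which 2444 were single regions, 306 were pairs and 26 had 5 regions or more. Of the 412 groups of 2 or more, 297 held unmarked regions only, 16 marked ones only and 99 both.

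**Figure D4:**
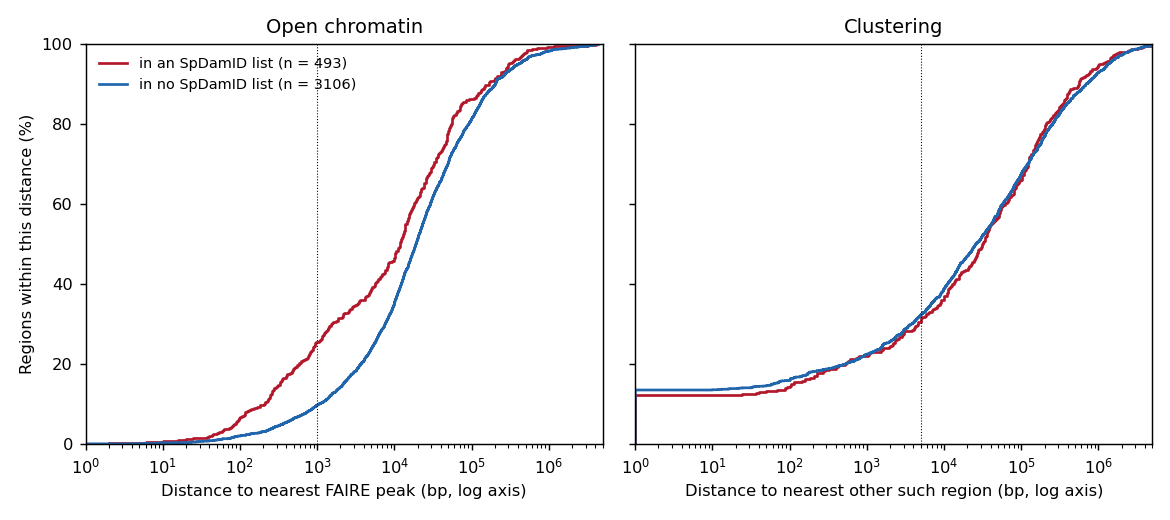
Cumulative share of long ChIP regions outside open chromatin (vertical axis, percent) by distance to the nearest FAIRE peak (left) and to the nearest other such region (right), on logarithmic axes in bp, with distances of 0 drawn at 1. Marked regions (red) lie closer to FAIRE peaks, 25.6% against 9.72% at 1 kb (dotted line), and both classes follow each other on the right, 31.2 and 32.2% at 5 kb (dotted line).

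The 3 largest clusters held no marked region, and their members repeated a few fragment lengths. On chromosome 6 from 114440136 to 114587030, 116 long regions lay in 146895 bp. Their ChIP signals ran from 1.66 to 10.9 with a median of 6.02, over 4 times the median of all members. Of the 116, 55 were within 2 bp of 303 bp and 60 within 2 bp of 453 bp, and the first kind recurred with a median start-to-start distance of 2450 bp. Input was measured in 69 of them, up to 0.469. The stretch held 4 SpDamID fragments, none of them a long ChIP region. The name of the deposited list says that it was repeat-masked, and repeats in this and the next clusters were not analysed here.

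The cluster on chromosome 3 from 93084221 to 93096093 was denser. It held 14 long regions of 510 to 594 bp with ChIP signals from 7.79 to 11.8 and measured inputs in all 14. ChIP regions of any length covered 90.2% of its 11873 bp. Of its 31 ChIP regions, 13 were 171 bp long, with signals from 7.92 to 16.7. No SpDamID fragment lay in it, and the nearest was 18435 bp from a member.

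On chromosome 8 from 57974949 to 57999459, 11 long regions had signals from 3.63 to 13.3. Of these, 5 were 778 bp and 3 were 939 bp long, and the first kind recurred with a median start-to-start distance of 3404 bp. The length of 778 bp was also found for 3 of the 7 members of a smaller cluster on chromosome 8, from 56198268 to 56208961. Its signals ran from 10.1 to 22.5, the highest value of all members. Neither cluster on chromosome 8 held an SpDamID fragment.

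Neighbours of equal length were found mainly in these clusters. Within their cluster, 165 of 3106 unmarked regions (5.31%) had another member of equal length within 1 bp, against 4 of 493 marked ones (0.811%). Without the 3 clusters of 10 or more, 29 of 2965 unmarked regions (0.978%) remained, a difference of -0.167 points with a 95% interval from -0.893 to 1.13. A ChIP signal of 10 or more was found in 7 marked regions (1.42%) and 25 unmarked ones (0.805%).

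Another cluster was marked throughout. On chromosome 6 from 52190659 to 52199936, 9 long regions lay in 9278 bp and all 9 were in an SpDamID list. The stretch held 13 SpDamID fragments, and the nearest FAIRE peak was 7668 bp from its first region. The first region, 52190659 to 52190991, had a ChIP signal of 12.4 (Poisson 95% counting interval 9.85 to 15.4) and lay in the 4 N1 lists and Mef2c/MAML, with scores of 412, 500, 546, 569 and 610 in the order N1/RBP, N1/MAML, N1/p300, N1/N1, Mef2c/MAML. The longest, 52196006 to 52197463, had a signal of 16.4 (14.9 to 17.9), the highest of the cluster, with 468 ChIP reads over 5 input reads, and lay in the 4 N1 lists but in neither Mef2c list. N1/N1 had its highest score of the cluster there, 585. Between these, 52190992 to 52191389 had a signal of 5.48 and lay in N1/RBP, N1/p300, N1/N1 and Mef2c/MAML. Further on, 52192746 to 52193175 and 52193176 to 52193543 had signals of 4.80 and 2.32 and lay in Mef2c/MAML only. Next to them, 52193544 to 52194105 had 10.8 and lay in N1/RBP and Mef2c/MAML. At the far end, 52199114 to 52199577 had a signal of 7.50 and lay in all 6 lists. Marking thus changed between neighbouring fragments inside the cluster, while the ChIP signal stayed at 2.32 or more in all 9.

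**Figure D5:**
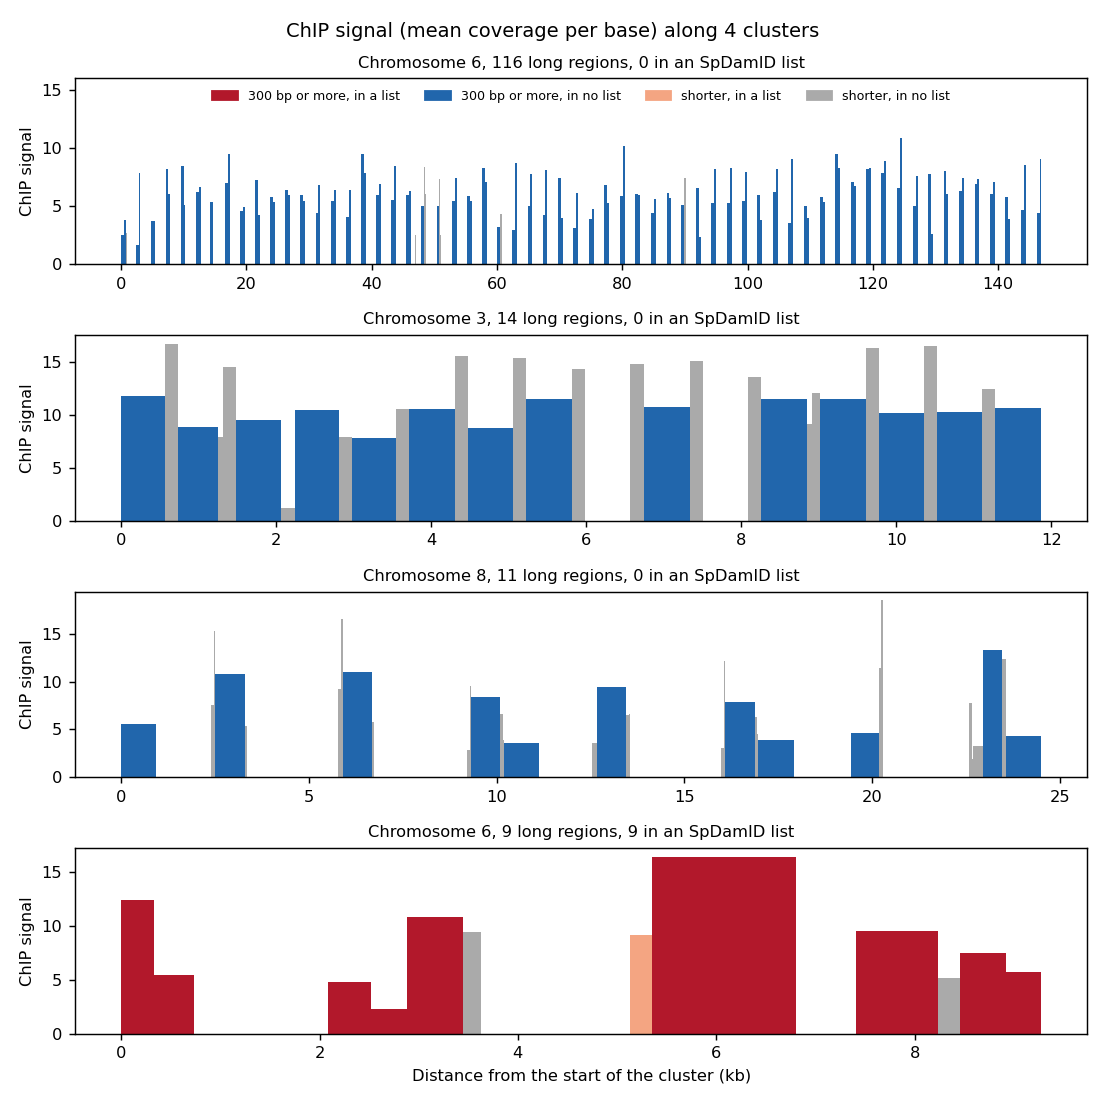
ChIP signal (mean coverage per base, vertical axis) of every ChIP region in the 4 clusters with the most long regions outside open chromatin, by distance from the start of the cluster in kb (horizontal axis); the width of a bar is the length of the region. The upper 3 clusters, of 116, 14 and 11 long regions, show none in an SpDamID list (blue), and all 9 long regions of the lowest one lie in a list (red).

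The fifth cluster, on chromosome 11 from 3026347 to 3036846, was mixed. It held 8 long regions with signals from 1.86 to 6.57. Among them 3026347 to 3028431 and 3033973 to 3034788 lay in N1/MAML and N1/p300, with signals of 5.54 and 5.73, and the other 6 were unmarked.

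The marked regions with the highest ChIP signals were few in place and varied in their partners. Beside the pair on chromosome 8 and 4 regions of the marked cluster on chromosome 6, the 10 highest included 3 on chromosome 15. There 12753894 to 12754231 had a signal of 15.0 (12.3 to 18.4) with 1 input read and lay in Mef2c/MAML only, at a score of 367. The region 10643138 to 10644084 had 9.90, and 11329068 to 11329804 had 9.76 (8.21 to 11.5) and lay in all 6 lists. On chromosome 5, 140914505 to 140915843 had 14.4 (13.0 to 15.9) and lay in N1/p300 only, at a score of 380.

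The 10 unmarked regions with the highest signals came mostly from clusters. Of these, 5 lay in the smaller cluster on chromosome 8, led by 56208184 to 56208961 with 22.5 (20.2 to 25.1) and 56201565 to 56202343 with 20.1. Next were 56204871 to 56205648 with 18.2, 56199148 to 56199652 with 17.4 and 56198268 to 56199045 with 13.6. The regions 57997894 to 57998418 on chromosome 8, with 13.3, and 93084221 to 93084787 on chromosome 3, with 11.8, lay in the clusters above. In no cluster, 52248370 to 52249179 on chromosome 10 had 13.4 (11.7 to 15.3), and its nearest SpDamID fragment was 99438 bp away.

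Of the 17 regions in all 6 lists, the 10 with the highest signals included sites with high scores throughout. On chromosome 6, 88527850 to 88528451 had a ChIP signal of 3.90 (2.85 to 5.20) and scores between 629 (N1/p300) and 750 (N1/MAML), with 736 in Mef2c/p300. On chromosome 8, 113603616 to 113604151 had 2.34 and lay 1169 bp from a FAIRE peak, with scores of 663 for N1/N1, 730 for N1/p300 and 199 for Mef2c/MAML. On chromosome 15, 9000528 to 9000943 had 4.36 and 8660165 to 8660906 had 3.42. Signals of 2.77 on chromosome 5 (139232318 to 139232796) and 1.79 on chromosome 19 (7492616 to 7493121) completed this group with the regions named above and a pair on chromosome 17. That pair, 15146503 to 15146998 and 15115130 to 15115626, had a ChIP signal of 2.84 each and equal scores in 5 lists, from 162 in Mef2c/p300 to 598 in Mef2c/MAML. Among the scores only that of N1/N1 differed between them, 477 and 476. Their lengths were 496 and 497 bp, with 28 ChIP reads each. Whether they are copies of the same sequence was not tested, and both count among the 17.

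Members were spread unevenly over chromosomes. Chromosome 8 held 498 of them, 13.8%, and 11.4% of all ChIP regions, but 6.38% of total FAIRE peaks and 6.92% of the SpDamID fragments. Chromosome 5 held 9.42% of the members, 8.24% of all ChIP regions and 6.10% of total FAIRE peaks. Chromosome 1, in contrast, held 3.36%, 4.12% and 6.93%. Long regions in open chromatin were uneven in the same direction on these chromosomes. Chromosome 8 held 11.9% of them, chromosome 5 7.70% and chromosome 1 4.87%. The share in an SpDamID list was between 10.5% (chromosome X, 8 of 76) and 18.5% (chromosome 18, 15 of 81), and the exact intervals of all chromosomes held the overall 13.7%. Copy number of these chromosomes was not analysed here.

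Within chromosomes, some stretches of 5 Mb were dense. Chromosome 5 from 140000001 to 145000000 held 148 members, 12 of them marked, and chromosome 8 from 120000001 to 125000000 held 131, with 25 marked. The median over the 439 stretches with any member was 4. Long ChIP regions in open chromatin numbered 50 and 42 in these dense stretches of chromosomes 5 and 8. Chromosome 15 from 10000001 to 15000000 held 94 members with a median ChIP signal of 2.08, of which 22 were marked, and 0 long ChIP regions in open chromatin. Each long ChIP region of that stretch thus lay outside FAIRE peaks. No gene, exon or sequence is given for these regions, since no genome or annotation of build mm9 was used here.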

How the data were processed

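The members and the comparisons were chosen with earlier results of these data known, so patterns seen before are not independent support. All values are in build mm9, per the submitters' processing notes, and 1-based. The N1 ChIP list carries no header. Its deposited columns hold a ChIP and an input signal (mean coverage per base) and their ratio, a fold of 10 or more, and no source used here gives how the authors scaled ChIP to input. SpDamID scores are over Dam at a confidence of 0.999, and FAIRE scores are from MACS in Galaxy, both per the file headers. No label spells out the short list names, and lists were matched to protein pairs by initials. No other column of per-sample values was present, and an aligner was not given in the sources used here.

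A region counted as in open chromatin or in a list when it shared at least 1 base, after 1 base was added to FAIRE starts. Regions with no more than 5 kb between them formed a cluster. Reads are the signal times length over 51. Shares carry exact Clopper-Pearson 95% intervals, medians order-statistic intervals, differences intervals combined from both, and read counts exact Poisson intervals. All cover counting error only. With pooled lists and 1 ChIP library there was no test. Regions were named by rank: the 10 highest ChIP signals in and outside the lists, the 10 highest among those in the most lists, the 5 largest clusters, the 3 highest inputs of each class and 3 regions on each side of 300 bp. Further regions in named clusters, and the smaller cluster on chromosome 8, were named after their values were seen. Replacing the fixed input with 1 read, leaving out clusters of 10 or more, and the alternatives for FAIRE distance other than total FAIRE peaks alone were chosen after seeing the data. The overlap step, tested on simulated data of 1200 regions, differed from a direct count in 0. Python 3.11.15, numpy 2.4.6, pandas 2.3.3, scipy 1.17.1 and matplotlib 3.10.9 were used. Sequence features and gene annotation were not analysed here.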

Additional observations from a re-analysis of the deposited data

How the results depend on the processing

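Of 75 values under other settings, 51 stayed within the 95% interval of the reported value, and 11 changed sign: 6 of 13 for clustering, 2 of 12 for measured inputs, 2 of 13 for the ratio and 1 of 13 for ChIP signal. The 51 include the values for identical start and end, which could not differ. All members in a list share both ends with the SpDamID fragment. The share of long regions outside open chromatin (61.4%) was 63.9% from 200 bp, 56.2% from 500 bp, 54.1% beyond 1 kb of FAIRE, 66.4% with less than 50% shared, 56.3% at a ratio of 20 or more and 58.0% with the fixed input replaced by 1 read. The share in an SpDamID list (13.7%) was 9.55%, 15.1%, 11.6%, 15.1%, 17.0% and 15.3% in the same order, 8.59% with scores from the list median up and 8.47% in 2 lists or more. The log2 quotient of median ChIP signals (0.084) was 0.0099 from 500 bp, -0.035 at a ratio of 20 or more and 0.35 with measured inputs only. For the ratio (0.069) it was -0.018 from 500 bp, -0.022 with 1 read and 0.20 with measured inputs only. The difference in measured inputs (1.45 points) was 5.80 (2.05 to 9.83) from 200 bp. The clustering difference (-0.991 points) was -9.89 at a ratio of 20 or more, 4.70 in 2 lists or more and 5.55 with any ChIP neighbour. The FAIRE difference at 1 kb (15.8 points) was the same with total FAIRE peaks alone and 20.3 in 2 lists or more, and was positive in all 5 alternatives run. The cause of these changes was not tested. With 1 read as the input, 2672 of the 3599 regions kept a ratio of 10. Depth is unknown, and single-region signals rest on few reads. No paired analysis was possible because the lists pool their libraries and the columns carry no replicate numbers. Leaving out a replicate was not possible for the same reason.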

Other observations

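The longest members, chosen after their values were seen, all lay in N1/MAML, and their ChIP signals varied. On chromosome 13, 6603775 to 6612186 spans 8412 bp with a ChIP signal of 1.08, and on chromosome 17, 7136164 to 7143152 spans 6989 bp with 2.43. The next, of 6448 bp on chromosome 18, had 2.01. Marked regions held by N1 lists alone were also the longest class, with a median of 627.5 bp, against 423 bp for Mef2c lists alone and 455.5 bp for both kinds. The whole lists differ in median length too. It was 754 bp in N1/N1, 667 bp in N1/RBP, 566 bp in N1/p300 and 517 bp in N1/MAML. In Mef2c/MAML it was 486 bp and in Mef2c/p300 630 bp. Closeness to FAIRE differed between the classes of marked regions as well: 18.97% of regions in N1 lists alone, 20.5% in Mef2c lists alone and 32.2% in both kinds lay within 1 kb of a peak.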
